A study of Mus musculus with 10 samples.

Results

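The loci of 3 mouse DNA methyltransferases, Dnmt3b, Dnmt3a and Dnmt1, were followed at base resolution in leukaemic spleen cells that did or did not carry a Dnmt3b knockin. The loci were taken by position in the mm9 build: chr2:153470000-153516000 for Dnmt3b, chr12:3803000-3917000 for Dnmt3a and chr9:20708000-20767000 for Dnmt1. They held 415, 1233 and 693 listed CpG cytosines, or 2341 of the 8185408 listed in the 10 libraries. A listed position is 1 cytosine on 1 strand, because positions 1 bp apart, which are the opposite strands of a single CpG, carry separate read counts. Position alone decided which cytosines are members, and neither their methylation nor their depth entered that rule. The loci themselves were chosen with earlier results of these data known.

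The 4 groups were profiled by reduced representation bisulfite sequencing, in which DNA is cut at CCGG sites with MspI, short fragments are kept and unmethylated cytosines are converted before sequencing. The groups were MLL-AF9 leukaemia with the Dnmt3b knockin (3 libraries), MLL-AF9 leukaemia wild type at that knockin (WT, 3 libraries), cMyc-Bcl2 leukaemia with the knockin (2 libraries) and cMyc-Bcl2 leukaemia WT (2 libraries). MLL-AF9 is a fusion oncogene of acute leukaemias, and cMyc and Bcl2 are a transcription factor and an inhibitor of cell death that were used together as oncogenes. The series describes the knockin as tetracycline-inducible, and all 10 libraries came from spleens of leukaemic mice. The MLL-AF9 cells were c-kit+ and the cMyc-Bcl2 cells carry no such label, so the oncogene and the c-kit selection cannot be told apart. Nothing in the labels says whether libraries of a group came from separate mice, and p-values therefore measure the spread between libraries. Libraries held 1.42e+07 to 4.60e+07 autosomal read calls, a read call being 1 read at 1 listed cytosine.

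DNA methyltransferases add a methyl group to cytosine, mostly where it precedes guanine. Dnmt3a and Dnmt3b set methylation on unmethylated DNA, and Dnmt1 copies it onto the new strand after replication. In most mammalian genes the CpG-rich start is unmethylated while the transcribed body is methylated, and gain of methylation at such a start usually accompanies silencing. Dnmt3a is in addition among the genes most often mutated in acute myeloid leukaemia in humans.

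The start regions carry most of the CpGs that could be read in every library, so their sequences are shown first, from RefSeq promoters of GRCm38.p6. Each runs from 250 bases before to 50 bases after an annotated start, on the gene's own strand, with CG in capitals. The spacing of the CpGs placed them among the listed mm9 positions without a conversion of coordinates: 32 of 33 listed cytosines matched for Dnmt3b (chr2:153474935-153475234, plus strand), 74 of 75 for the upstream Dnmt3a start (chr12:3806730-3807029, plus strand), 15 of 15 for the downstream Dnmt3a start (chr12:3891494-3891793, plus strand) and 38 of 38 for Dnmt1 (chr9:20757018-20757317, minus strand).
Dnmt3b: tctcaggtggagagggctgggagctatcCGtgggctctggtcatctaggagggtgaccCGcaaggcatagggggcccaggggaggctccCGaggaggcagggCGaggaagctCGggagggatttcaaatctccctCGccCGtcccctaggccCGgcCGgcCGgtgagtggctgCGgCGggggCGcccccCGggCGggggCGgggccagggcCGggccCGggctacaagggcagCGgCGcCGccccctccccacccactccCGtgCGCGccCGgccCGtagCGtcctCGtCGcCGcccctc
Dnmt3a, upstream start: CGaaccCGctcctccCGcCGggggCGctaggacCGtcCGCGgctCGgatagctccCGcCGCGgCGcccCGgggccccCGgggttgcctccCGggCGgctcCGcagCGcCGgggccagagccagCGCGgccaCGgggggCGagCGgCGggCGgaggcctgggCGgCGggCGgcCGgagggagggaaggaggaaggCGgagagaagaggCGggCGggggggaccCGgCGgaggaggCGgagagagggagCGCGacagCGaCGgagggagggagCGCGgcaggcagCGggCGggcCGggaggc
Dnmt3a, downstream start: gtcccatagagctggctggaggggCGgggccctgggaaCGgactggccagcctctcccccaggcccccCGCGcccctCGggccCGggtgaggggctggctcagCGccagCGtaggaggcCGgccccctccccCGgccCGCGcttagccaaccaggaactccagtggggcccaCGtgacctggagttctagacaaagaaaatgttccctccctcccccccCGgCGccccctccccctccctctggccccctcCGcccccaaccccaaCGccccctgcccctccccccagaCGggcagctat
Dnmt1: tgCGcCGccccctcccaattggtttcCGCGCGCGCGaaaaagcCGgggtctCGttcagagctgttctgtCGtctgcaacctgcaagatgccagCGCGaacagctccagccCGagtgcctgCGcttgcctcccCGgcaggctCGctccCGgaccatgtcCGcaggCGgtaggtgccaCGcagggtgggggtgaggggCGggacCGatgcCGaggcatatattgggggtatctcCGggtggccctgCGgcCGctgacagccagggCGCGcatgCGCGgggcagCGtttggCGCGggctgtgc
They hold 30, 46, 18 and 33 CpGs, against a median of 7 over the 32851 promoters of the table, and 11.7% of those promoters reach 30. The MspI site CCGG, which reads the same on both strands, occurs 7, 8, 4 and 4 times in them, and at least once in 52.8% of all promoters. A further Dnmt3a start (chr12:3806910-3807209, plus strand) overlaps the upstream sequence. Of 3 annotated Dnmt1 starts, the other 2 were not placed and were not analysed here.

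All these starts were nearly unmethylated in every library of every group. Within the printed Dnmt3b sequence, 0.212%, 2.05% and 1.28% of reads were methylated in the MLL-AF9 knockin libraries, against 1.10%, 0.461% and 3.72% in MLL-AF9 WT. The cMyc-Bcl2 libraries gave 0.857% and 0.775% with the knockin, against 0.478% and 0.465% in WT. Each of these values rests on 209 to 859 read calls. The MLL-AF9 groups overlap, and the cMyc-Bcl2 groups do not but lie under 1 point apart. In the 1-kb window of this start the cMyc-Bcl2 order was the opposite. There knockin minus WT was -0.58 points on 53 cytosines with 10 reads, also without overlap. The upstream Dnmt3a sequence ranged over all 10 libraries between 0.114% and 1.39%, and the Dnmt1 sequence between 0.591% and 1.79%. The downstream Dnmt3a sequence, which lies inside the locus 84.5 kb after the first start, was slightly above these, at 2.65%, 3.89% and 4.29% in MLL-AF9 knockin against 1.74%, 3.81% and 1.41% in MLL-AF9 WT. It stood at 3.85% and 5.61% in cMyc-Bcl2 knockin against 2.41% and 2.17% in cMyc-Bcl2 WT.

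Windows of 1 kb were tested by a quasi-binomial fit with limma-moderated dispersion across all autosomal windows with at least 3 cytosines of 10 or more reads in every library. For windows, the limma fit named below means this quasi-binomial fit. Calls required a Benjamini-Hochberg adjusted p below 0.05 together with 10 or more percentage points between the groups. None of the 9 locus windows tested in MLL-AF9 was called, with 0.0516% of all windows called there. None of 15 was called in cMyc-Bcl2 (background 0.00185%), and none of 7 in the fit over both models, where 3.61% of all windows were called. At an unadjusted p under 0.05 the numbers were 2, 2 and 0, and 14.1%, 13.2% and 19.3% of all windows passed that threshold in the same fits. With a minimum of 5 reads, none of 16 locus windows was called in MLL-AF9 (background 0.0537%), none of 23 in cMyc-Bcl2 (0.0014%) and 1 of 14 over both models (3.72%). The cMyc-Bcl2 window fit made no calls on simulated data with planted changes, so its lack of calls does not show absence of change. All knockin libraries exceeded all WT libraries in 2 of the 9 MLL-AF9 windows, as in 18.8% of all, and in 5 of the 15 cMyc-Bcl2 windows, as in 24.1% of all. The opposite order held in 3 of the 15, against 17.6% of all cMyc-Bcl2 windows. At 5 reads the higher order held in 3 of 16 and 8 of 23 windows, against 18.9% and 23.5% of all. The median difference of the 7 windows over both models was -0.17 points, and that of all windows was 0.39 points.

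The windows that hold the starts were low in methylation in both groups. Over both models, knockin minus WT was -0.41 points at the Dnmt3b start (28 cytosines, adjusted p = 0.87 in the quasi-binomial limma fit). It was 0.51 and 0.24 points in the neighbouring windows of the upstream Dnmt3a starts, with adjusted p-values of 0.63 and 0.614 in the same limma fit. At Dnmt1 it was -0.17 points in the window of the start and -0.78 points in the next window of the gene. The Dnmt3a window that reaches up to the upstream start was the only start window with non-overlapping MLL-AF9 groups. It stood at 0.694%, 0.591% and 0.555% in knockin libraries and 0.262%, 0.082% and 0.112% in WT. That difference of 0.46 points had an adjusted p of 0.245 in the limma fit. The window of the downstream Dnmt3a start had the largest differences of the start windows. It stood at 2.84%, 5.15% and 3.57% in MLL-AF9 knockin and 1.67%, 3.12% and 1.64% in MLL-AF9 WT, which overlap (1.71 points, adjusted p = 0.57 in the limma fit). At 5 reads it stood at 11.9% and 5.36% in cMyc-Bcl2 knockin and 2.83% and 3.01% in cMyc-Bcl2 WT, which do not overlap (5.73 points, adjusted p = 0.587 in the limma fit). Over both models at 5 reads its difference was 3.30 points.

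**Figure D1:**
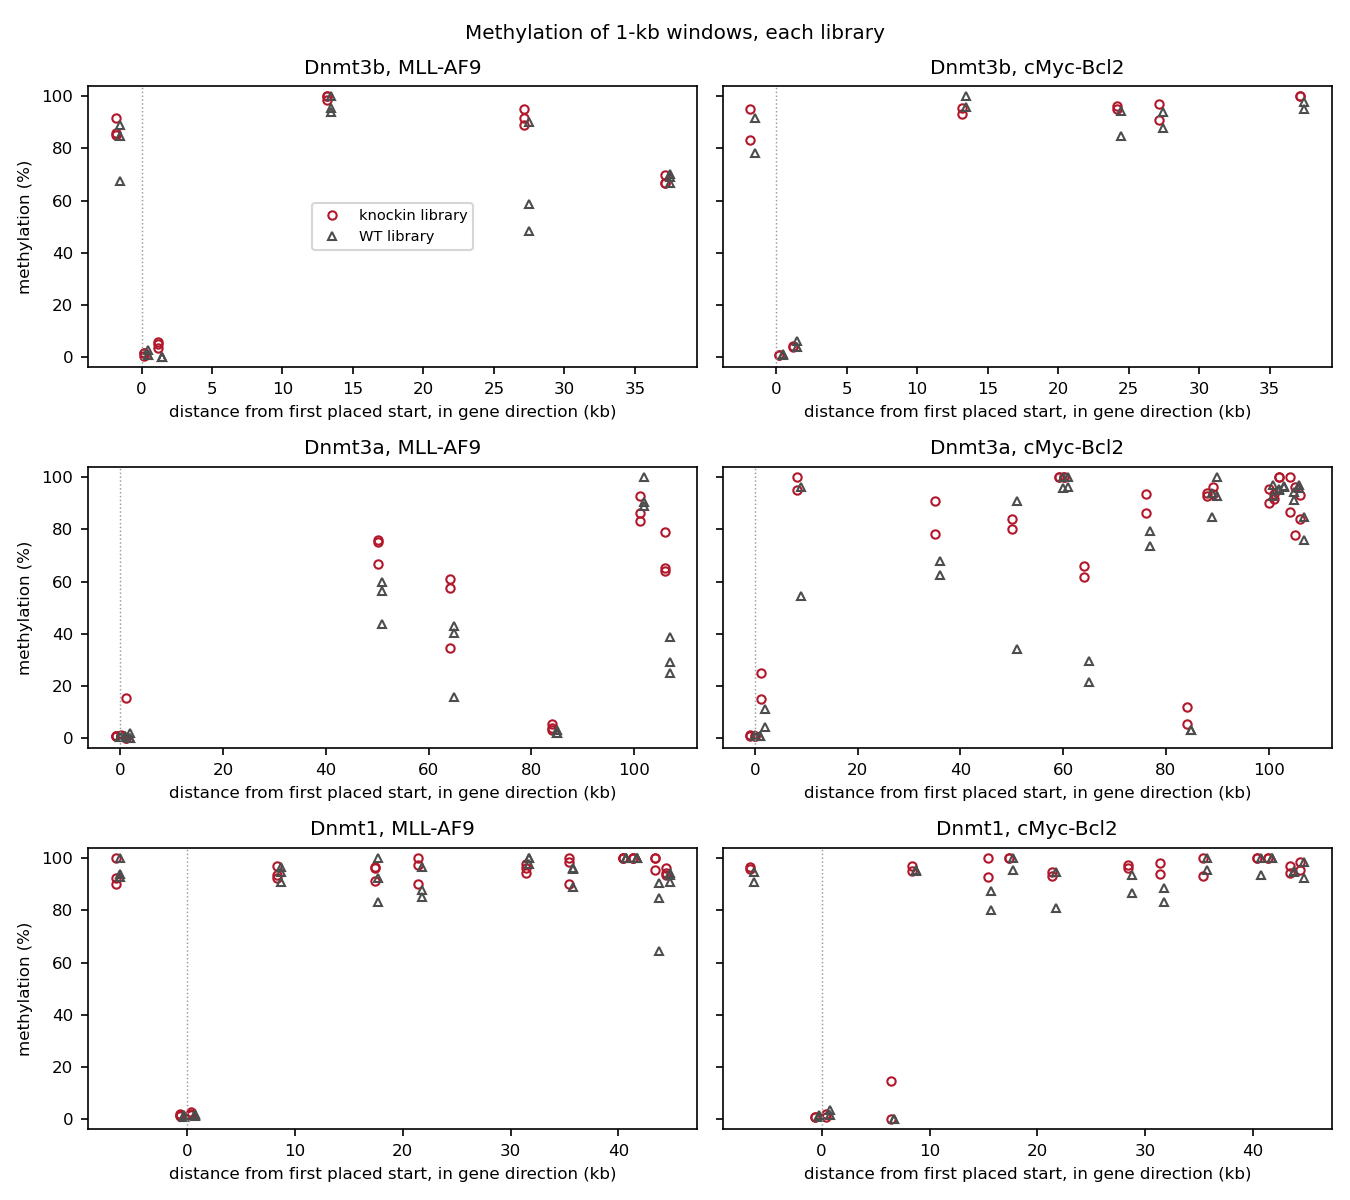
Methylation in percent (y axis) of 1-kb windows along Dnmt3b, Dnmt3a and Dnmt1, against distance in kb from the first placed start in the direction of the gene (x axis); cytosines have at least 5 reads in every library of the model, red circles are knockin libraries and grey triangles WT libraries. All libraries sit near 0% at the starts and mostly above 80% elsewhere in Dnmt3b and Dnmt1, while several Dnmt3a windows lie between, among them those 64.5 and 107 kb after the first start.

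The Dnmt3a gene held intermediate windows between and beyond its starts, and the largest differences among the tested windows of the 3 loci lay there. In the window from chr12:3913001, 107 kb after the first start, 4 cytosines stood at 60.0%, 78.1% and 63.3% in MLL-AF9 knockin and 33.8%, 22.5% and 27.8% in MLL-AF9 WT. The groups do not overlap. The difference of 39.1 points had an unadjusted p of 0.000337 and an adjusted p of 0.0967 in the quasi-binomial limma fit and was not called. With limma on M-values instead, the lowest adjusted p of the 4 Dnmt3a windows tested in MLL-AF9 was 0.206. With a minimum of 5 reads this window could be tested over both models and was called, at 23.8 points and an adjusted p of 0.0239 in the limma fit. It is the 1 locus window called at that setting. The cMyc-Bcl2 libraries contributed little to it, at 84.2% and 93.3% with the knockin against 84.7% and 75.8% in WT, and these overlap. The difference between the models in the knockin effect was 30.6 points in this window (MLL-AF9 minus cMyc-Bcl2), with an adjusted p of 0.509 in the limma fit.

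Between the starts, in the window from chr12:3871001, 64.5 kb after the first, the larger difference lay in the other model. There 9 cytosines stood at 61.2% and 64.6% in cMyc-Bcl2 knockin and 24.3% and 25.6% in cMyc-Bcl2 WT. This difference of 37.9 points had an unadjusted p of 0.000437 and an adjusted p of 0.0865 in the quasi-binomial limma fit. With limma on M-values instead, the lowest adjusted p of the 4 Dnmt3a windows tested in cMyc-Bcl2 was 0.324. In MLL-AF9 the window could be read only at 5 reads, where it stood at 61.2%, 57.6% and 34.6% in knockin libraries and 15.5%, 40.2% and 42.9% in WT. Those groups overlap, because knockin replicate 3 was lower than WT replicates 2 and 3. Over both models at 5 reads the difference was 29.0 points with an adjusted p of 0.0853 in the limma fit. These inner windows were singled out after their values were seen.

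**Figure D2:**
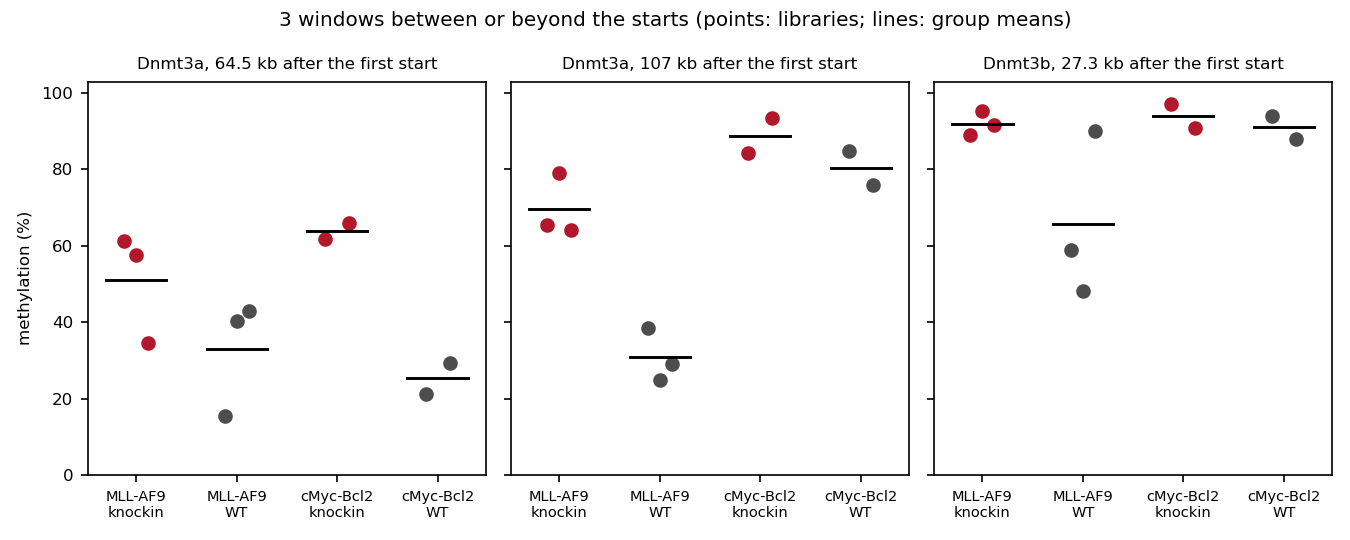
Methylation in percent (y axis) at a minimum of 5 reads in 2 Dnmt3a windows and 1 Dnmt3b window, by group (x axis); points are libraries and lines group means. The Dnmt3a window at 64.5 kb separates the cMyc-Bcl2 groups, that at 107 kb separates the MLL-AF9 groups, and in Dnmt3b MLL-AF9 WT replicate 3 lies among the knockin libraries.

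Outside the start regions, that is more than 1 kb from every placed start, the 14 Dnmt3a cytosines with 5 reads in every library averaged 62.8%, 67.4% and 47.8% in MLL-AF9 knockin and 28.4%, 39.4% and 42.4% in MLL-AF9 WT. The same cytosines averaged 74.8% and 80.9% in cMyc-Bcl2 knockin and 48.1% and 52.5% in cMyc-Bcl2 WT. Within each model every knockin library was above every WT library. At 10 reads 2 cytosines remain in all libraries, and there the cMyc-Bcl2 groups overlap, at 75.0% and 90.0% with the knockin against 81.2% and 80.5% in WT. This division of the locus was made after its values were seen and is given without a test. Of these cytosines, 12 lie in the windows at 64.5 and 107 kb, so that the average is mostly theirs. A further window, 1.52 kb after the first start, was tested in cMyc-Bcl2 on 4 cytosines and stood at 42.5% and 10% in knockin against 6.25% and 5.77% in WT. Its 20.2 points rest largely on knockin replicate 1 and had an adjusted p of 0.534 in the limma fit. At 5 reads its 9 cytosines stood at 25.0% and 14.9% in cMyc-Bcl2 knockin and 10.9% and 4.27% in cMyc-Bcl2 WT. The windows that follow rest on 1 or 2 cytosines and were not tested. The window 50.5 kb after the first start stood at 75.0%, 75.9% and 66.7% in MLL-AF9 knockin and 60.0%, 56.2% and 43.8% in MLL-AF9 WT at 5 reads, while its cMyc-Bcl2 groups overlap. The window 76.5 kb after the first start stood at 93.7% and 86.2% in cMyc-Bcl2 knockin and 73.8% and 79.5% in cMyc-Bcl2 WT. The opposite order also occurred, as in the window 106 kb after the first start, where 1 cytosine stood at 94.6% and 72.7% in cMyc-Bcl2 knockin and 96.0% and 96.7% in cMyc-Bcl2 WT at 10 reads. Not all of the gene was intermediate, and the windows 59.5 and 60.5 kb after the first start were at or above 95.8% in every cMyc-Bcl2 library.

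The body of Dnmt3b was above 80% methylated in most windows, with exceptions in MLL-AF9. The single cytosine read at 10 or more reads in all libraries outside the start region, 13.3 kb after the start by its window, was methylated at 100%, 97.0% and 100% in MLL-AF9 knockin and 91.7%, 100% and 100% in MLL-AF9 WT. It was at 100% in both cMyc-Bcl2 knockin libraries, against 97.1% and 100% in cMyc-Bcl2 WT. The window 27.3 kb after the start gave the widest spread of the locus. At 5 reads its 3 cytosines stood at 88.9%, 95.2% and 91.5% in MLL-AF9 knockin and 58.8%, 48.1% and 90.0% in MLL-AF9 WT. The groups overlap, and the adjusted p in the MLL-AF9 limma fit was 0.18 for a difference of 26.2 points. In cMyc-Bcl2 the window was at 97.0% and 90.8% with the knockin against 94.0% and 88.0% in WT, on 7 cytosines. The window 37.3 kb after the start was between 66.7% and 70.0% in all MLL-AF9 libraries at 5 reads, on 3 cytosines, and at 95.0% or above in all cMyc-Bcl2 libraries, on 4. These sets of cytosines differ, so the levels of the 2 models are not comparable there. The MLL-AF9 set holds chr2:153512310, at 25.0% or below in every MLL-AF9 library. The cMyc-Bcl2 set lacks it for want of reads and holds chr2:153512309, at 100% in every library. Upstream of the start, in the window 1.68 kb before it, methylation was again high, between 67.4% and 95.0% over the 10 libraries.

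The body of Dnmt1, the maintenance enzyme, was mostly methylated in every group. The 10 cytosines outside its start region with 10 reads in every library averaged 94.2%, 93.8% and 94.9% in MLL-AF9 knockin and 91.5%, 89.8% and 91.4% in MLL-AF9 WT. In cMyc-Bcl2 they averaged 97.7% and 96.2% with the knockin and 95.5% and 91.4% in WT. The knockin libraries were the higher ones within each model, by 3.46 points on average over both, again without a test because the division was made afterwards. At 5 reads, on 27 cytosines, the MLL-AF9 groups overlap and the average difference was 2.61 points. Of the windows tested in cMyc-Bcl2 at 10 reads, the one 31.6 kb into the gene had the largest difference, at 94.1% and 98.3% in knockin against 88.7% and 83.4% in WT. That difference of 10.1 points had an adjusted p of 0.37 in the limma fit, and the same window differed by -3.22 points in MLL-AF9 at 5 reads, where its groups overlap. At 5 reads the window 15.6 kb into the gene differed by 12.7 points in cMyc-Bcl2, with an adjusted p of 0.526 in the limma fit. The windows 8.57 and 44.6 kb into the gene, tested over both models, differed by -0.25 and 0.46 points, with adjusted p-values of 0.98 and 0.773 in the limma fit.

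The mean over each whole locus, with each cytosine counted once, was compared over libraries by an exact two-sided permutation test, which cannot fall below 0.1 in MLL-AF9, 0.333 in cMyc-Bcl2 and 0.0167 over both models. Dnmt3b averaged 8.18% ± 0.505 (SD, n = 3) in MLL-AF9 knockin and 7.41% ± 1.75 (SD, n = 3) in MLL-AF9 WT, with an exact p of 0.6. In cMyc-Bcl2 it averaged 11.9% in either group, and the difference was -0.023 points. Dnmt3a averaged 2.72%, 3.38% and 2.93% in MLL-AF9 knockin and 1.45%, 0.921% and 1.33% in MLL-AF9 WT, which do not overlap (exact p = 0.1). Its cMyc-Bcl2 libraries were at 18.5% and 17.6% with the knockin and at 13.5% and 14.4% in WT, which do not overlap either (exact p = 0.333). Outside the Dnmt3a start regions lie 4 of these cytosines in MLL-AF9 and 30 in cMyc-Bcl2, which differed by 39.5 and 18.0 points. Inside the start regions the differences were 0.54 and -0.17 points. The Dnmt3a locus means are therefore not separate from the inner cytosines described above. Dnmt1 averaged 33.5% ± 0.0782 (SD, n = 3) in MLL-AF9 knockin and 32.0% ± 0.565 (SD, n = 3) in MLL-AF9 WT (exact p = 0.1). Its cMyc-Bcl2 libraries stood at 47.6% and 47.6% with the knockin and at 47.0% and 44.4% in WT. Adjusted over the 9 tests, the lowest exact p was 0.3. With cytosines weighted by their reads, the cMyc-Bcl2 differences turned round, to -4.17 points at Dnmt3a and -6.31 points at Dnmt1. The means of the 2 models rest on different cytosines, for Dnmt3a 126 with MLL-AF9 against 127 with cMyc-Bcl2, so their levels are not comparable.

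Between the leukaemias, none of the 7 locus windows tested in the WT libraries was called for cMyc-Bcl2 minus MLL-AF9, where 0.16% of all windows were (0.183% at 5 reads, where none of 14 locus windows was called). The largest of these differences was 5.28 points in Dnmt1. At 5 reads the Dnmt3a window 107 kb after the first start was 52.2 points higher in cMyc-Bcl2 WT than in MLL-AF9 WT, with an adjusted p of 0.0545 in the limma fit. The test of whether the knockin effect differed between the models called none of the 7 windows, with 0.0175% of all windows called, and at 5 reads none of 14, with 0% of all windows called. The share of methylated reads in bulk DNA does not tell methylation of some cells from methylation of 1 of the alleles in all cells.

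Among 13 other genes linked to DNA methylation or its removal, the start of 11 could be placed by its CpG spacing, and 7 of their windows were tested over both models. None of the 7 was called, and the other 4 had too few reads. In 6 of them, at Uhrf1 and Uhrf2, which recognise hemimethylated DNA or resemble the protein that does, Hells, a chromatin remodeller, Tet2, an oxidising enzyme of methylcytosine, Mbd4, a glycosylase, and Zbtb24, a zinc-finger protein, every library was at or below 3.07%. Tet3, another enzyme that oxidises methylcytosine, was the exception. Its start window (chr6:83391001-83392000, 21 cytosines) was methylated at 11.1%, 12.6% and 6.13% in MLL-AF9 knockin and 1.01%, 1.72% and 1.28% in MLL-AF9 WT. In cMyc-Bcl2 it stood at 18.1% and 13.3% with the knockin and 8.32% and 7.20% in WT. The knockin libraries were above every WT library in both models, which held for 5.91% of all windows. The difference of 8.28 points had an adjusted p of 0.0226 in the limma fit over both models and missed the call because it is under 10 points.

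Read depth was compared as a check for extra Dnmt3b copies in the knockin libraries. Where 1 copy is added beside 2, a ratio of 1.5 would be seen over the DNA that the copy holds. Relative depth is given in reads per 1000000 autosomal read calls. Of the 158 Dnmt3b positions with at least 50 reads in all, 123 lie in the 1-kb window of the start. The locus median mostly describes that window, and a copy without it could go unseen there. The median Dnmt3b cytosine had a relative depth of 0.835, 0.679 and 1.07 in MLL-AF9 knockin and 0.814, 0.503 and 0.740 in MLL-AF9 WT. The groups overlap and the ratio was 1.26 (exact two-sided permutation p = 0.4). In cMyc-Bcl2 the median was 0.676 and 0.642 with the knockin and 0.562 and 0.598 in WT, a ratio of 1.14 (exact p = 0.333, the smallest this design allows). Dnmt3a, which carries no knockin, gave ratios of 1.05 in MLL-AF9 and 1.20 in cMyc-Bcl2. In cMyc-Bcl2 that ratio rests on WT replicate 1, whose median Dnmt3a depth was 0.308, against 0.620 in WT replicate 2. Without it the log2 ratio was -0.27, against 0.26 with it. Dnmt1 gave 0.91 in MLL-AF9 and 0.976 in cMyc-Bcl2, and the lowest of the 9 adjusted p-values of this exact test was 0.825. Taken cytosine by cytosine, the median log2 ratio of knockin over WT in cMyc-Bcl2 was higher at Dnmt3b, at 0.44. It was 0.27 at Dnmt3a, 0.20 at Dnmt1 and 0.031 over all positions. Without cMyc-Bcl2 WT replicate 1 the Dnmt3b median was 0.051. In MLL-AF9 these medians were 0.18 at Dnmt3b, 0.017 at Dnmt3a, -0.25 at Dnmt1 and 0.045 over all positions.

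**Figure D3:**
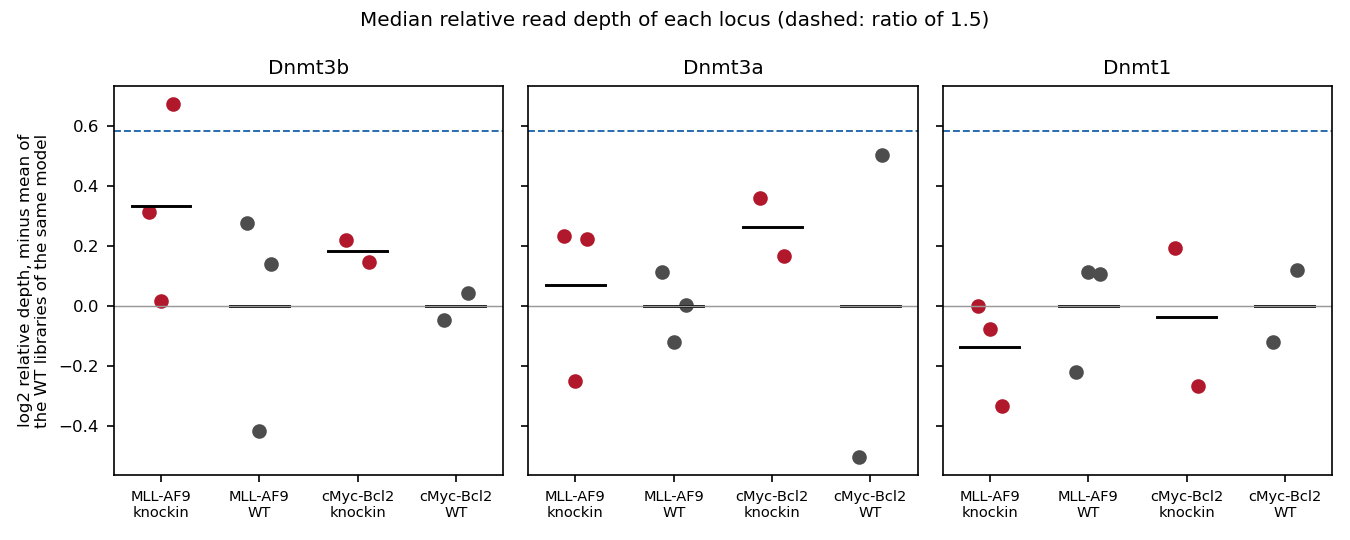
Median log2 relative read depth of Dnmt3b, Dnmt3a and Dnmt1 in each library, minus the mean of the WT libraries of the same model (y axis), by group (x axis); points are libraries, black lines group means, and the dashed line a ratio of 1.5. In Dnmt3b 1 library, MLL-AF9 knockin replicate 3, lies above the dashed line, and no group mean reaches it in any locus.

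Cytosine by cytosine, no position of the 3 loci was called for depth in the limma fits of positions with a mean of at least 10 reads, in MLL-AF9 (0% of all positions called), in cMyc-Bcl2 (0.00392%) or over both models (0.00142%). Over both models 10 of 133 Dnmt3b positions, 21 of 314 Dnmt3a positions and 0 of 107 Dnmt1 positions had an unadjusted p under 0.05, as did 2.88% of all positions. Neighbouring positions share reads, so these counts are not of independent values. With positions within 100 bp of a larger one passed over, the largest ratios at Dnmt3b were a log2 ratio of -1.38 at chr2:153475490, one of 0.94 at chr2:153475386 and one of 0.92 at chr2:153502600. Within 100 bp of the first of these lies the highest ratio of the locus, 1.34 at chr2:153475558. It had 12, 9 and 34 reads in MLL-AF9 knockin and 7, 6 and 5 in MLL-AF9 WT, and 40 and 43 in cMyc-Bcl2 knockin and 4 and 16 in cMyc-Bcl2 WT. Neither of these neighbours, whose ratios differ in sign, was called. At chr2:153502600 the MLL-AF9 knockin libraries had 18, 35 and 44 reads and MLL-AF9 WT 5, 18 and 10. The cMyc-Bcl2 knockin libraries had 60 and 53 reads there and WT 17 and 59. At Dnmt3a the largest was 1.36 at chr12:3807033, beside the upstream starts, where cMyc-Bcl2 WT replicate 1 had 2 reads and WT replicate 2 had 19. The next at Dnmt3a, 1.33 at chr12:3807551 and 0.98 at chr12:3807872, had 0 and 1 reads in that WT replicate 1, fewer than in any other cMyc-Bcl2 library. At Dnmt1 it was -1.22 at chr9:20757224, which had 0 to 2 reads in the MLL-AF9 libraries. Log2 ratios of -0.99 at chr9:20756969 and -0.81 at chr9:20741112 followed at Dnmt1.

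By 1-kb window, 1 of 8 Dnmt3b windows was deeper in every knockin than in every WT library of its model, as was 0.692% of all windows, and none of 20 in Dnmt3a or 15 in Dnmt1 was. It is the window 27.3 kb after the start. Its depth was 6.68, 5.18 and 6.53 reads per 1000000 calls in MLL-AF9 knockin and 1.75, 5.07 and 3.38 in MLL-AF9 WT. In cMyc-Bcl2 its depth was 6.19 and 6.01 with the knockin and 3.05 and 5.61 in WT. The ratios were 1.80 and 1.41, and in each model 1 WT library came close to the knockin libraries. The window from chr2:153476001, just after the start, had ratios of 1.54 in MLL-AF9 and 1.78 in cMyc-Bcl2. The window of the start had 1.10 and 1.25. In both, only the cMyc-Bcl2 groups did not overlap. The windows from chr2:153488001, chr2:153499001 and chr2:153512001 had cMyc-Bcl2 ratios below 1, at 0.49, 0.95 and 0.60. At Dnmt3a the window from chr12:3807001 had 1.61 in cMyc-Bcl2, also without overlap.

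A further stretch of Dnmt3b was read almost only in knockin libraries. It spans 50 bp at chr2:153491055-153491104, 15.87 kb after the start, and holds 4 listed cytosines. At its deepest position the MLL-AF9 knockin libraries had 5, 11 and 1 reads and the MLL-AF9 WT libraries 0, 1 and 0. The cMyc-Bcl2 knockin libraries had 35 and 18 reads there and the cMyc-Bcl2 WT libraries 0 and 0. Each 0 allows up to 3 reads, or 0.653 to 2.12 per 10000000 calls, depending on the library. All libraries with more than 1 read were knockin libraries, but MLL-AF9 knockin replicate 3, at 0.320 per 10000000 calls, was below MLL-AF9 WT replicate 2, at 0.403.

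The stretch was singled out after its depth was seen, so the ratios, intervals and p-values that follow describe it and are no independent test. At chr2:153491070 the cMyc-Bcl2 knockin libraries summed to 53 reads and WT to 0, and the exact 95% interval of the ratio begins at 12.2. The MLL-AF9 sums were 17 and 1, a ratio of 12.5 with an exact 95% interval of 1.95 to 521 that covers counting error only. Reads in the knockin libraries were mostly methylated, at 57.9%, 86.4% and 100% of 19, 44 and 4 read calls in MLL-AF9 and 94.2% and 85.5% of 121 and 62 in cMyc-Bcl2. The 4 positions lie within 50 bp and have similar read counts, so calls among them are not independent. In the limma fit with no depth minimum, 3 of the 4 positions were called over both models, with log2 ratios of 3.40, 3.51 and 3.45 and adjusted p-values of 0.0221, 0.0107 and 0.0157. That fit called 0.00992% of all positions, and its ratios depend on the 0.5 reads added to each count. The same fit within MLL-AF9 (0.012% of all positions called) or within cMyc-Bcl2 (0.00165%) called none of the locus positions. With the minimum of 10 reads the stretch entered the cMyc-Bcl2 fit only, through its knockin reads. There 3 positions had log2 ratios of 5.17 to 5.45, with standard errors of 4.34 to 5.05, and none was called.

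**Figure D4:**
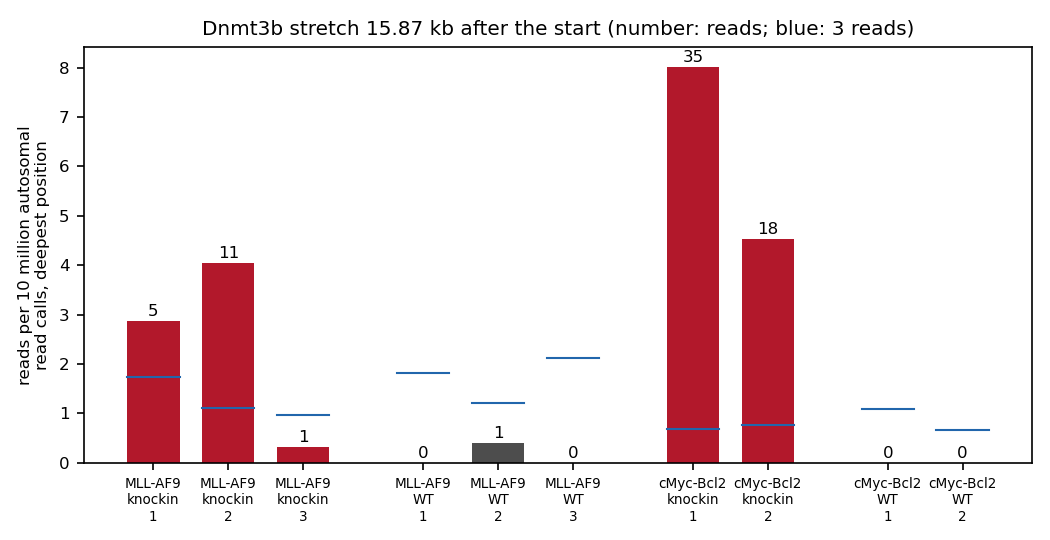
Reads per 10000000 autosomal read calls (y axis) at the deepest position of the Dnmt3b stretch in each library (x axis); numbers give the reads and blue lines the level of 3 reads. Both cMyc-Bcl2 knockin libraries and MLL-AF9 knockin replicates 1 and 2 lie above that level, and the others have 0 or 1 reads.

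The nearest read position before the stretch did not share this pattern. At chr2:153488666, 2389 bp before the stretch, the MLL-AF9 knockin libraries had 22, 33 and 14 reads and WT had 12, 25 and 10. The cMyc-Bcl2 knockin libraries had 15 and 21 reads there and WT 35 and 24. The position after it, chr2:153499958, lies 8854 bp away and had 0 to 4 reads in the MLL-AF9 libraries, too few to compare. It had 27 and 32 reads in cMyc-Bcl2 knockin and 36 and 9 in cMyc-Bcl2 WT, which overlap. Over the autosomes, 85 of 1294289 positions with at least 50 reads in all were read in every knockin library and had at most 3 WT reads, which is 0.00657%. In all, 3 positions had the opposite pattern. Dnmt3b held 4 of the 85 among its 158 such positions, all in this 1 stretch, and Dnmt3a and Dnmt1 held 0 among 408 and 113. This count was defined after the stretch had been seen and is a description. No annotation of the mm9 build was used here, so whether the stretch is exonic was not analysed here.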

How the data were processed

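The deposited tables hold, for each library, mm9 positions with methylated and unmethylated read counts written as a pair; these were used as the authors deposited them. The submitters' processing notes name Bismark 0.7.4, methylKit, CASAVA and Trim Galore 0.2.2, whose settings were not given there. The loci, lists and tests were chosen with earlier results of these data known.

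Windows of 1 kb with at least 3 cytosines of 10 reads were fitted on all autosomes by a quasi-binomial logistic model in R 4.3.3, its dispersion moderated by limma 3.58.1 and held at 1 or above, with oncogene as covariate over both models. Depth was log2 of reads per 1000000 autosomal calls, 0.5 reads added, tested with limma. Locus means and depths were compared by exact permutation over libraries, stratified by oncogene. Both fits were tested on simulated data, where unadjusted p-values of the window fit ran too small and the cMyc-Bcl2 window fit made no calls. Promoters were placed by CpG spacing (at least 5 listed cytosines, at most 1 unmatched, and, chosen after seeing the data, 3 more matches than at the next best place). Windows named are those holding a placed start, those called in any fit and the 3 largest differences per locus over both models; positions named for depth are the 3 largest ratios per locus, neighbours within 100 bp counted as 1. Other windows named were chosen after their values were seen. The tables are not normalised for depth, PCR copies are not marked, and intervals cover counting error only.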

Additional observations from a re-analysis of the deposited data

How the results depend on the processing

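No paired analysis was possible because replicate numbers follow the order of the samples and pair no libraries. Leaving out each library in turn, other read minima, windows of 500 bp, limma on M-values and both strands joined (added after seeing the data) called no locus window, except the Dnmt3a window 107 kb after the first start at 5 reads over both models (1 window). For depth, 3 positions were called over both models with no minimum, and 0 to 44 in cMyc-Bcl2 when a library was left out, the 44 without WT replicate 2, where 1 WT library is assumed to vary like the others; that is 8.0% of the locus positions tested, and 6.46% of all positions were called there. The exact tests of locus means and depths cannot pass the adjusted threshold in this design, so their p-values say nothing about stability; signs turned, and the cause was not tested. Locus means in points: Dnmt3b became -0.33 in MLL-AF9 at 20 reads; in cMyc-Bcl2 0.13 at 5 reads and 0.11 with strands joined; over both models 1.12 at 5 reads and 0.21 with strands joined. Weighted by reads, Dnmt3a became -4.17 in cMyc-Bcl2 and -1.57 over both models, and Dnmt1 -6.31 and -1.50; Dnmt1 became -0.21 over both models at 20 reads. Log2 depth ratios: Dnmt3a became -0.042 in MLL-AF9 relative to the median over positions; Dnmt1 became 0.034 in MLL-AF9 at a mean of 20 reads, 0.048, 0.11 and 0.17 in cMyc-Bcl2 relative to the median, at a mean of 20 reads and by summed reads, and -0.034 and -0.046 over both models relative to the flanking 500 kb and to the median. Without 1 library, the Dnmt3b mean ran from -0.17 to 0.48 in cMyc-Bcl2 and -0.34 to 0.95 over both models; Dnmt1 log2 depth from -0.21 to 0.066 in MLL-AF9, -0.16 to 0.20 in cMyc-Bcl2 and -0.13 to 0.12 over both; Dnmt3a log2 depth from -0.088 to 0.32, -0.27 to 0.73 and -0.059 to 0.45. Over all autosomes, 823 windows were called higher over both models, against 1490 at 5 reads, 30 at 20 reads, 24 with limma on M-values and 78 to 987 without 1 library, the 78 without cMyc-Bcl2 WT replicate 2; in MLL-AF9 13 were, and 0 without any 1 library. A minimum of 20 reads gave no Dnmt3a mean in MLL-AF9 or over both models. The Dnmt3a windows kept 33.6 to 42.7 points at 107 kb in MLL-AF9 and 36.5 to 39.6 points at 64.5 kb in cMyc-Bcl2. Depth limits the bodies: 96.6% of Dnmt3b and 96.2% of Dnmt3a cytosines with 10 reads in all libraries lie in start regions, against 66.7% in Dnmt1.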

Other observations

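Positions read in every knockin library and nearly absent from WT libraries fell into 30 stretches over the autosomes. Of these, 27 stretches with 77 positions lie on chromosome 11, between positions 85750069 and 100225194 of mm9, 1 is the Dnmt3b stretch, and 2 lie elsewhere. The opposite pattern gave 2 stretches. What the DNA of these stretches is was not tested.

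A pair of CpGs in the last part of Dnmt3b was read differently on its strands. At chr2:153512309 methylation was 100% in every library, while the neighbouring cytosine chr2:153512310 stood at 15.8%, 15.8% and 7.41% in MLL-AF9 knockin and 0%, 25.0% and 0% in MLL-AF9 WT, on 9 to 27 reads. In the cMyc-Bcl2 libraries that cytosine had 2 to 14 reads and was at 66.7% and 100% with the knockin and 85.7% and 100% in WT. At chr2:153512359 methylation was at least 95.7% in every library, and at chr2:153512358 it was 11.1%, 36.4% and 14.3% in MLL-AF9 knockin and 33.3%, 9.09% and 0% in MLL-AF9 WT, on 3 to 21 reads. These were 2 of 56 Dnmt3b pairs, against 0 of 143 in Dnmt3a and 0 of 29 in Dnmt1. Of all pairs with at least 10 reads at both positions of a library, 0.145% to 1.52% per library differed by over 50 points. The 2 Dnmt3b pairs have fewer than 10 reads at a position in some libraries, so that share is not counted in the same way. The window mean there, 66.7% to 70.0% in MLL-AF9, includes chr2:153512310 and not its partner chr2:153512309. What makes the strands differ was not tested, so the low values need not be methylation levels of the DNA.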
